A study of Rattus norvegicus with 24 samples.

Results

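Oprm1, the gene of the mu opioid receptor (ENSRNOG00000018191), was 1 of the 32883 genes counted in tissue of the rostral posterior hypothalamic (rPH) region of adult rats, and it is followed here across 4 treatment groups and rat by rat. It was selected on its measured level in earlier results of these data: the log2 fold change between the groups with 1 and with 7 loud noise exposures was among the larger increases. The values of Oprm1 in that comparison (AS versus RS7), and in the one that sets the same 7-exposure rats against the control group (C versus RS7), are therefore a description and carry no test. The low AS levels and the high RS7 levels both entered that choice, and the C versus RS7 value was known when it was made. The other comparisons (C versus AS, C versus RS3, AS versus RS3 and RS3 versus RS7) share rats with these. They are thus not independent of the choice, and their p-values are printed only beside that limit. The count table lists Ensembl identifiers only, and the symbol of this one was taken from the identifiers and names in the study's supplementary gene list.

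The rats were adult male Sprague-Dawley rats, 6 per group. All of them were placed daily into sound-attenuating chambers over the same week, and the groups differed in how many of those sessions held a loud noise. The control (C) group heard background noise only, the acute stress (AS) group 1 loud noise, and the repeated stress groups 3 (RS3) or 7 (RS7). In every rat the block of tissue was taken 24 h after the last session, which also ended with a blood sample in all groups, and polyadenylated RNA was sequenced from it. The block was cut by landmarks and held all cell types within them. In such bulk tissue, a change in the number of cells that express a gene and a change in the RNA per cell cannot be told apart.

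The mu opioid receptor is the receptor through which morphine acts, and its own ligands in the brain are endorphins and enkephalins. It couples to inhibitory G proteins, which lower cyclic AMP, open potassium channels of the GIRK family and reduce calcium entry at nerve terminals, so that the cell that carries it fires and releases less. In the rat brain the receptor is known to be dense in the medial thalamus and the habenula, and it is also present in the hypothalamus.

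RefSeq annotates a pair of transcription starts for rat Oprm1 in the GRCr8 build, on the plus strand of chromosome 1, 20612 bases apart, at 45565371 and 45585983. They are shown because a count per gene does not separate transcripts by their start, so a difference in Oprm1 level cannot be assigned to either start. Whether the counted gene model covers both starts was not examined. The reads were mapped to another build, rn6, and the 250 bases before each start are given only as the sequence of the gene's annotated start regions, in lower case throughout because no searched motif was found to capitalise.
Upstream start, chr1:45565121-45565370: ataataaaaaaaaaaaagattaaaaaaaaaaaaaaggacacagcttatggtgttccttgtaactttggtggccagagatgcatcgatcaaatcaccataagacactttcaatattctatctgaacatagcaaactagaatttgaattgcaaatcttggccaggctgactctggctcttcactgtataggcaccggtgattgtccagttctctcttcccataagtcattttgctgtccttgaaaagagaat
Downstream start, chr1:45585733-45585982: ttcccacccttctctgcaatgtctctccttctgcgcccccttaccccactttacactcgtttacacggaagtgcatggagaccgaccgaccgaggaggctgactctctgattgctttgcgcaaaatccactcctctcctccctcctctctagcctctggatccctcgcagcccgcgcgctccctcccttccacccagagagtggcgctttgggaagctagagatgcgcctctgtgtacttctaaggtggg
The stretch before the downstream start held 58.4% G and C bases and that before the upstream start 36.4%. Both strands were searched for the letters of the glucocorticoid response element as a palindrome (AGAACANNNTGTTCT) and as a half-site (AGAACA), of the cyclic AMP response element (TGACGTCA) and its half-site (TGACG), and of the AP-1 site (TGANTCA). Each half-site lies within its full element, so the matches of a pair overlap. Among 33469 windows of the same length before annotated rat starts, 0.012% held the palindrome, 17.5% AGAACA, 1.59% TGACGTCA, 18.2% TGACG and 6.34% TGANTCA. None of the 5 was present in either Oprm1 window, which says only that these letters are not in these 250 bases.

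The study had left 4 rats out for the quality of their libraries, and the groups below hold the other 20, with 5 rats in each. Their reads counted on genes numbered 8087697 to 16947298 per rat (median 12385781), and the 10 most abundant genes took 12.4% to 20.3% of them. In the left-out libraries this share was 24.9% to 46.3%. Of 13 listed hypothalamic markers, 6 had an identifier (Isl1, Gal, Calcr, Lhx9, Magel2 and Ndn), and the others could not be looked at. All 6 were detected, with summed levels between 234 and 424 CPM. Markers of the dorsal thalamus were also detected in every rat, and their levels stand beside the Oprm1 results below. All these markers had an identifier only through the study's list of genes that differed in these rats. Their detection was thus fixed in advance and is no check of the tissue.

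Oprm1 was higher in each of the 5 RS7 rats than in any of the 15 rats of the other groups. Levels are in CPM (counts-per-million), the reads on the gene divided by the library size after TMM scaling. In the C group Oprm1 was at 7.94 CPM in rat 19, 10.9 in rat 21, 16.1 in rat 22, 10.07 in rat 23 and 15.6 in rat 24. In the AS group it was at 13.7 CPM in rat 13, 9.79 in rat 14, 10.8 in rat 15, 6.37 in rat 16 and 7.45 in rat 17. The rats of both groups covered much the same span, and the lowest rat of all was an AS rat. In the RS3 group Oprm1 was at 12.3 CPM in rat 7, 18.8 in rat 9, 16.3 in rat 10, 8.33 in rat 11 and 17.6 in rat 12. In the RS7 group it was at 23.1 CPM in rat 2, 26.6 in rat 3, 24.97 in rat 4, 22.8 in rat 5 and 20.01 in rat 6. The RS3 rats spread from the low to the upper end of the C rats and a little beyond, and the lowest RS7 rat lay above the highest RS3 rat.

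**Figure D1:**
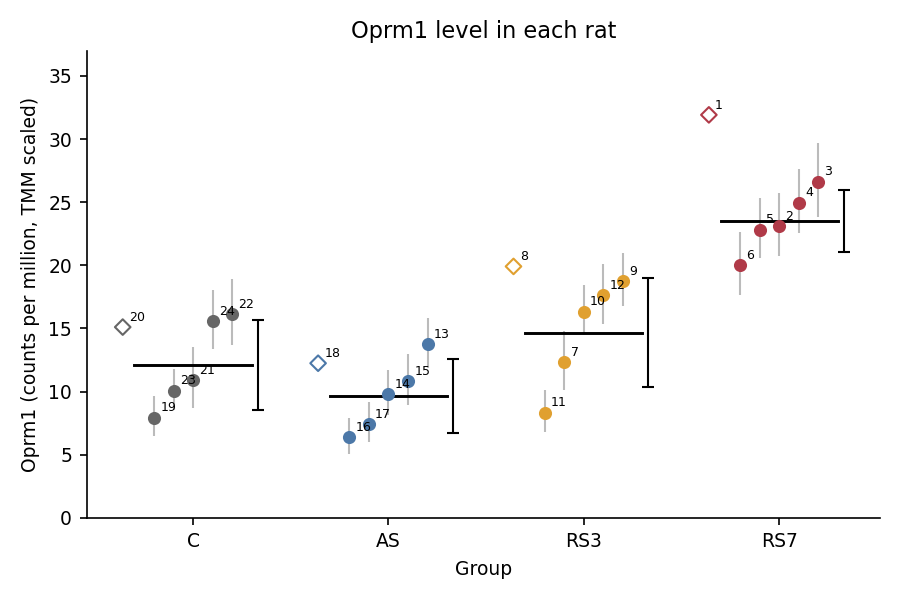
Oprm1 in CPM (y axis, from 0) by group (x axis), with 1 filled point per retained rat labelled by rat number, grey bars for the 95% exact Poisson interval of its count, a horizontal line for the group mean and a black bar for the SD (n = 5). Open diamonds are the 4 left-out rats, scaled together with all 24 rats. The 5 RS7 points lie between 20.01 and 26.6 CPM, above the highest RS3 point at 18.8.

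These values rest on 81 to 381 reads per rat, which gave a counting error of 5.12% to 11.1% for a single rat. This covers counting error only, since reads copied by PCR are not independent molecules. The mean was 12.1 ± 3.57 CPM for C, 9.64 ± 2.91 for AS, 14.7 ± 4.31 for RS3 and 23.5 ± 2.49 for RS7 (SD, n = 5 each). The order of the means was thus AS, C, RS3 and RS7, and the first 3 groups overlapped with each other.

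The spread of Oprm1 between rats of a group exceeded the counting error of a single rat in every group, and by least in RS7. The coefficient of variation was 29.5% in C, 30.2% in AS, 29.3% in RS3 and 10.6% in RS7. The highest rat had 2.03 times the level of the lowest in C, 2.16 times in AS, 2.25 times in RS3 and 1.33 times in RS7. Whether the spread itself differed between groups was not tested. In the edgeR fit, the biological coefficient of variation of Oprm1 was 24.0%, against a trend of 9.55% at its count abundance, and 97.6% of the 501 genes nearest in abundance had a lower one. Oprm1 was thus among the more variable genes between rats given the same treatment.

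In the C versus AS comparison, a single loud noise against none, the Oprm1 level differed by less than the spread between rats. The log2 fold change was -0.31 (standard error 0.24, 95% interval -0.82 to 0.19), and edgeR's quasi-likelihood test gave a Benjamini-Hochberg adjusted p of 0.668 over 16202 genes. An exact two-sided permutation of the rats gave p = 0.254. The AS rats are among those whose levels singled Oprm1 out, so neither p-value is independent of that choice. The edgeR test called 0.0% of genes in this comparison, with 1625 genes at an unadjusted p under 0.05.

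The Oprm1 values of the C and RS3 rats overlapped as well. The log2 fold change was 0.31 (standard error 0.23, 95% interval -0.17 to 0.79), with an edgeR adjusted p of 0.514 and an exact permutation p of 0.373. The C versus RS7 value of these C rats was known when Oprm1 was chosen, so neither p-value is independent of that choice. The edgeR test called 0.0% of genes here, with 2639 at an unadjusted p under 0.05. From AS to RS3 the mean was higher by 0.62 on the log2 scale (standard error 0.23, 95% interval 0.14 to 1.11), with an edgeR adjusted p of 1.00 and an exact permutation p of 0.0794. The AS rats are among those whose levels singled Oprm1 out. The values of the AS and RS3 rats overlapped, and 0.0% of genes passed the edgeR test, with 747 at an unadjusted p under 0.05. The intervals leave room for a difference between C and AS, or between C and RS3, of about the size measured between AS and RS3.

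RS3 versus RS7 compared the groups with more and with fewer repeated exposures, and here the rats of the groups did not overlap in Oprm1. The mean was 1.58 times higher in RS7, a log2 fold change of 0.66 (standard error 0.21, 95% interval 0.22 to 1.10). The edgeR test gave an adjusted p of 0.619, so Oprm1 was not called, and 0.0% of all genes were, with 1218 at an unadjusted p under 0.05. For 0.87% of the 16202 genes every RS7 rat was above every RS3 rat, and Oprm1 was one of them. The RS7 rats in this comparison are those whose levels singled Oprm1 out. The gap between these groups is therefore a description, and the edgeR adjusted p of Oprm1 is not independent of that choice.

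Against the C and the AS groups, RS7 gave the larger differences, both of which were known when Oprm1 was chosen. The RS7 mean was 1.96 times the C mean, a log2 fold change of 0.97 (standard error 0.22, 95% interval 0.51 to 1.43), and 2.43 times the AS mean, a log2 fold change of 1.28 (standard error 0.22, 95% interval 0.82 to 1.75). In both comparisons no rat of one group lay within the range of the other. The edgeR test called 0.148% of genes in C versus RS7 and 1.67% in AS versus RS7. Every RS7 rat was above every C rat for 2.06% of genes and above every AS rat for 2.39%. The 6 comparisons share rats, each group entering 3 of them, so their values are not separate measurements.

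**Figure D2:**
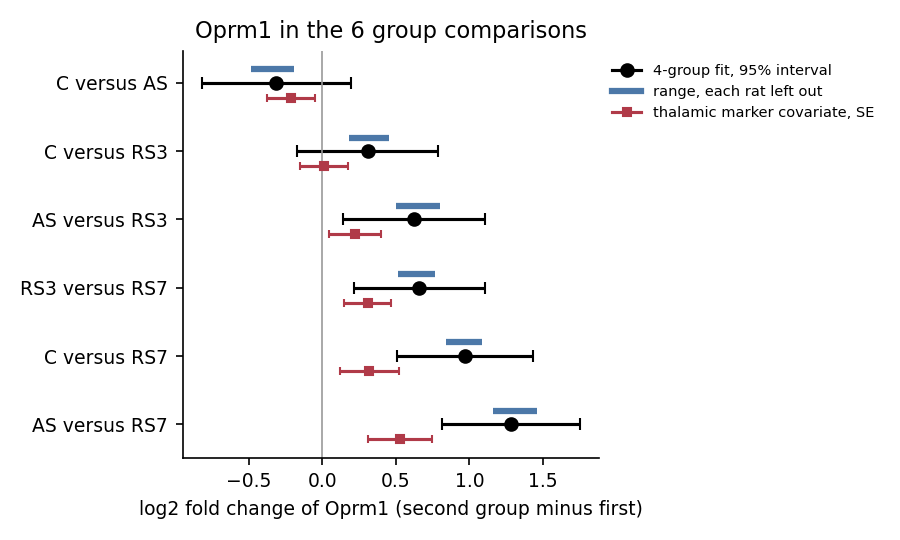
The log2 fold change of Oprm1 (x axis, second group minus first) in each of the 6 group comparisons (y axis), with black points and bars for the estimate of the 4-group fit and its 95% interval, blue bars for the range when each rat was left out in turn, and red squares for the fit with the dorsal thalamus markers as a covariate, with the standard error. The estimates run from -0.31 in C versus AS to 1.28 in AS versus RS7, and the red squares of the RS7 comparisons lie nearer to 0, at 0.31 to 0.53. The covariate was built from genes that differed in these rats, which in part set this shift in advance.

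The left-out rats were scaled together with the others, on which scale the retained rats spanned 7.47 to 15.3 CPM in C, 5.99 to 13.02 in AS, 7.84 to 17.8 in RS3 and 18.9 to 25.2 in RS7. C rat 20 had 15.1 CPM and AS rat 18 had 12.2, both inside the range of their own group. RS3 rat 8 had 19.9 CPM, above the other RS3 rats and inside the RS7 range, and RS7 rat 1 had 31.9, on this scale the highest of all 24 rats. With these rats included, RS3 and RS7 overlapped in Oprm1, while C and AS each stayed below all 6 RS7 rats. By total counts alone, without TMM scaling, this overlap was absent. RS3 rat 8 then had 17.6 CPM, inside the RS3 range and below the lowest RS7 rat at 19.99. RS7 rat 1 had 23.4, below RS7 rat 3 at 26.5. AS rat 18 rested on 32 reads, with a counting error of 17.7%. Its level by total counts was 6.74 CPM, inside the range of the retained AS rats on that scale (6.59 to 14.0).

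Levels of dorsal thalamus markers were also highest in the RS7 group. Of 12 listed markers 6 had an identifier, with 7 identifiers in all: the transcription factor genes Tcf7l2 (2 identifiers), Lef1, Rora and Rorb, the vesicular glutamate transporter gene Slc17a6, and Ntng1, which encodes netrin G1. None was at 0. Their summed level lay between 1028 and 1371 CPM in the C rats, 1084 and 1504 in the AS rats, 1129 and 1668 in the RS3 rats and 1546 and 1941 in the RS7 rats. The largest part of that sum was Slc17a6, with a mean of 578 CPM in C and 753 in RS7. These identifiers come from the study's own gene list, which was drawn from comparisons of these rats, so they are not an independent sample of thalamic genes.

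The markers followed Oprm1 within groups as well as between them. The correlation of their mean log2 CPM with that of Oprm1 was 0.89 over the 20 rats, and 0.75 after the group means were taken out. In RS3 rat 11 and AS rat 16, each the lowest of its group in Oprm1, the mean log2 CPM of the markers was also the lowest of the group, at 6.07 and 5.91. In the C and RS7 groups the lowest rats of the 2 measures were different ones. The correlation of single markers with Oprm1 within groups ran from 0.50 for Slc17a6 to 0.72 for Ntng1. Points share a library and a dissection, and the coefficients are descriptions.

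With the mean of the thalamic markers as a covariate in the fit, an alternative added once the data had been examined, Oprm1 differences were smaller in all 6 comparisons. C versus RS3 came to 0.01 (standard error 0.17) and AS versus RS3 to 0.22 (standard error 0.18). The log2 fold change was then 0.32 (standard error 0.20) in C versus RS7, 0.53 (standard error 0.22) in AS versus RS7 and 0.31 (standard error 0.16) in RS3 versus RS7. That fit called 0 genes in any comparison. The covariate was built from genes on the study's list of genes that differed in these rats, and its markers had their highest means in RS7. The smaller differences and the 0 calls were thus in part set in advance. Marker level and number of exposures moved together in these rats, so a difference in the thalamic share of the block and a change in expression with exposure cannot be told apart here.

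**Figure D3:**
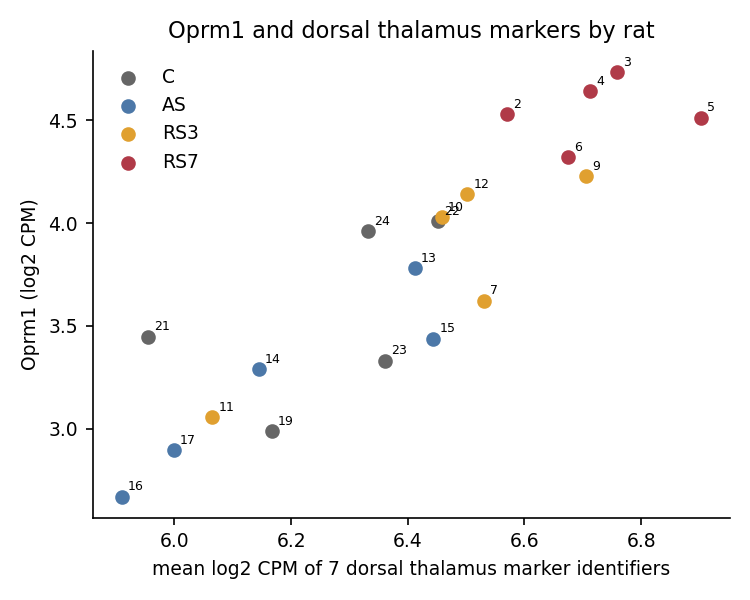
Oprm1 (y axis, log2 CPM) against the mean log2 CPM of 7 dorsal thalamus marker identifiers (x axis), 1 point per retained rat coloured by group. The points form a rising band (correlation 0.89 over 20 rats, 0.75 within groups), with the RS7 rats at the top right and AS rat 16 at the bottom left.

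Following Oprm1 within groups was not particular to the thalamic markers. Thy1, a marker of neurons in general, had a within-group correlation of 0.78 with Oprm1, and Slc1a2, an astrocyte glutamate transporter gene, one of 0.76, both above every single thalamic marker. Other members of their lists had 0.42 (Snap25), 0.06 (Nefm), 0.03 (Nefl), -0.29 (Slc1a3) and -0.38 (Aqp4). For whole lists, the within-group correlation of the mean log2 CPM was 0.34 for 4 markers of neurons in general, 0.31 for the endothelial marker Plvap, 0.23 for 4 markers of neurosecretory neurons, 0.19 for 3 astrocyte markers, 0.07 for 6 markers of GABAergic and prethalamic neurons, 0.05 for 6 hypothalamic markers and -0.17 for the choroid plexus marker Cldn9. Over the 20 rats, the mean log2 CPM of the hypothalamic and of the GABAergic markers ran opposite to Oprm1, with correlations of -0.55 and -0.54. Lhx9 of the hypothalamic list went the other way, with a correlation of 0.75 (0.56 within groups). Its mean was 7.56 CPM in C, 8.20 in AS, 9.97 in RS3 and 12.7 in RS7. The mean summed level of the hypothalamic markers was 363 CPM in C, 394 in AS, 339 in RS3 and 287 in RS7. Most of that sum was Ndn, at 264 CPM in C and 227 in RS7. For the GABAergic markers the mean summed level was 851, 851, 620 and 562 CPM in the same order of groups. In AS versus RS7, Magel2 (edgeR adjusted p = 0.035) and Ndn (edgeR adjusted p = 0.036) of the hypothalamic list fell. So did Gad1 (edgeR adjusted p = 0.013), which encodes a GABA-synthesizing enzyme. Of all genes, 0.481% were called lower in that comparison. Other markers were called higher there, as were 1.19% of all genes. By edgeR adjusted p these were Rora (0.012), Rorb (0.015), Snap25 (0.026), Nefm (0.033), Slc1a2 (0.0095) and Plvap (0.040). The markers had an identifier only through the study's list of genes that differed in these rats. Neither their calls nor their direction are therefore independent evidence. Neurosecretory markers had the widest spread, with summed levels of 22.4 to 287 CPM in the C rats and 7.66 to 35.9 in the RS7 rats. The part of these markers in the Oprm1 levels was not tested. No listed marker of the habenula, oligodendrocytes or microglia had an identifier, so these cell types were not analysed here. For the percentage of reads on the 10 most abundant genes, the correlation with Oprm1 was 0.13 over the 20 rats and 0.17 within groups.

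The genes whose levels followed Oprm1 most closely over the 20 rats were Myo5a, Rab3c, Bltp1 and Peak1. Myo5a encodes a myosin motor that carries vesicles along actin, Rab3c a small GTPase of synaptic vesicles, Bltp1 a bridge-like lipid transfer protein and Peak1 a pseudokinase of the cytoskeleton. Their Pearson correlations with Oprm1 in log2 CPM were 0.96 for Myo5a, Rab3c and Bltp1 and 0.95 for Peak1, and these were the 4 highest among all 16201 other tested genes, named or not. Spearman coefficients were 0.97, 0.95, 0.97 and 0.93 in the same order. The 95th percentile over all genes was 0.64.

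This ordering did not come from the group means alone. After group means were subtracted, the 4 highest named genes were Peak1 (0.91), Myo5a (0.90), Rab3c (0.89) and Rasal2 (0.89), with 1 gene without a usable symbol ranked among them, and the 95th percentile over all genes was 0.57. Rasal2 encodes a GTPase-activating protein for Ras. Of the 100 highest genes in each ranking, 45 were in both. The lowest named genes within groups were Igsf1 (-0.76), Trafd1 (-0.71) and Akr1b1-ps2 (-0.70), below which stood 47, 128 and 132 genes of all kinds. Akr1b1-ps2 is named as a pseudogene and could share reads with its parent gene. Named genes were 737 in number and all came from the study's list of genes that differed in these rats.

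The 4 most similar genes had the same order of group means as Oprm1, with smaller differences. Myo5a was at 313 ± 40.4 CPM in C, 284 ± 32.9 in AS, 353 ± 49.2 in RS3 and 424 ± 19.6 in RS7 (SD, n = 5). Rab3c was at 120.4 ± 18.1 CPM in C, 107 ± 14.8 in AS, 126 ± 18.4 in RS3 and 161 ± 14.5 in RS7. In AS versus RS7 the log2 fold change was 0.58 for Myo5a, 0.59 for Rab3c, 0.30 for Bltp1 and 0.40 for Peak1, and edgeR adjusted p values lay between 0.0043 and 0.031. The Oprm1 value in that comparison was 1.28. In C versus RS7 none of the 4 passed, with edgeR adjusted p values of 0.054 to 0.127. Of all genes, edgeR called 1.67% in AS versus RS7. The 4 genes were picked by their correlation with Oprm1 over these same rats and were named through the study's list of genes that differed. Neither their order of group means nor their p-values are therefore independent evidence.

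**Figure D4:**
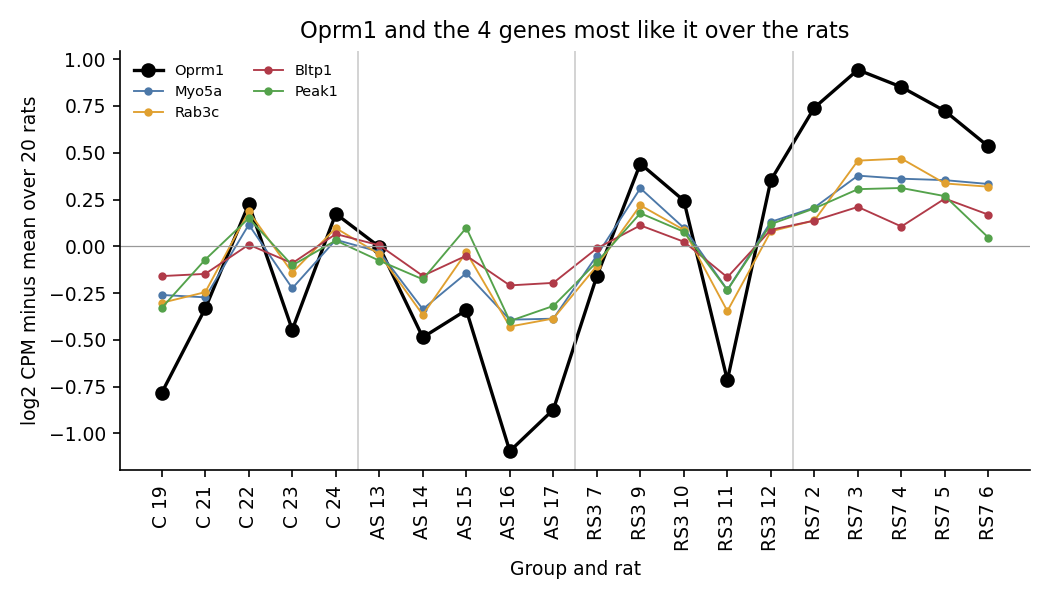
Level of Oprm1 (thick black line) and of the 4 genes most like it, as log2 CPM minus the gene's mean over the 20 rats (y axis), for each retained rat by group (x axis). Lines only join the points of a gene, as rats of a group have no order, and the 4 genes dip with Oprm1 in AS rats 16 and 17 and RS3 rat 11 and lie above their means in all RS7 rats.

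Around the receptor, 13 of 52 listed genes of the opioid system had an identifier, all through the study's gene list, which holds genes that differed in these rats. Neither their direction against RS7, nor how many of them were called, nor how far their median lies from that of all genes is therefore independent evidence. Of the receptors, 1 of 4 could be followed (Oprm1 itself), of the peptide precursors 1 of 4 (Penk), of the enzymes that process or break down the peptides 1 of 6 (Pcsk2), of the effectors 4 of 13, of the regulators 6 of 20 and of the inhibitory G proteins 0 of 5. Of the 12 genes other than Oprm1, edgeR called 0 in 5 of the 6 comparisons. In AS versus RS7 it called 5, 4 of them higher and 1 lower in RS7, where 1.19% and 0.481% of all genes were called higher and lower. The median log2 fold change of the 12 genes in AS versus RS7 was 0.28, against -0.01 over all genes tested, a gap that the way they got an identifier had already set.

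Penk, the precursor of the enkephalins, had its lowest mean in RS7, where the receptor had its highest, but did not pass the edgeR test. From C to AS the means of both genes were lower. Its level was 60.2 ± 15.8 CPM in C, 53.8 ± 12.1 in AS, 44.4 ± 10.6 in RS3 and 32.8 ± 8.74 in RS7. The highest RS7 rat, at 46.7 CPM, lay above the lowest C rat at 36.2. The log2 fold change was -0.86 in C versus RS7 (standard error 0.22, edgeR adjusted p = 0.090) and -0.71 in AS versus RS7 (standard error 0.22, edgeR adjusted p = 0.117). The correlation of Penk with Oprm1 was -0.64 over the 20 rats and -0.25 within groups. Pcsk2, a convertase that cleaves peptide precursors, was at 415 ± 52.6 CPM in C and 535 ± 60.0 in RS7, with an edgeR adjusted p of 0.108.

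The effectors had higher RS7 means, none of which passed the edgeR test. The study's own DESeq2 test had listed them, so that result depends on the method. On these counts DESeq2 called 10 of the 12 opioid system genes other than Oprm1 in AS versus RS7. Kcnj6, a subunit of the GIRK potassium channels, was at 24.6 ± 4.62 CPM in C, 23.9 ± 3.51 in AS, 26.4 ± 3.22 in RS3 and 31.5 ± 2.11 in RS7 (AS versus RS7, log2 fold change 0.40, edgeR adjusted p = 0.071). The adenylyl cyclase genes Adcy8 and Adcy9 had log2 fold changes of 0.21 and 0.20 in AS versus RS7, with an edgeR adjusted p of 0.082 for each. Cacna1e, the pore subunit of a neuronal calcium channel, had 0.35 there (edgeR adjusted p = 0.098), and 0.06 in C versus RS7.

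The called genes were all among those listed as regulators. In AS versus RS7, Rgs7bp, which anchors regulators of G protein signaling at the membrane, rose from 29.3 ± 7.27 to 45.9 ± 6.04 CPM (log2 fold change 0.65, edgeR adjusted p = 0.033). Ogfrl1 rose from 43.3 ± 5.97 to 67.3 ± 4.55 CPM (0.64, edgeR adjusted p = 0.0095). It counts as a regulator here only because it was listed so, and no link of it to the mu opioid receptor was examined. Rgs17, which speeds the turning off of inhibitory G proteins, rose by 0.31 (edgeR adjusted p = 0.029), and the protein kinase C gene Prkcb rose by 0.22 (edgeR adjusted p = 0.042). Gprasp2, which takes part in sorting receptors after they are internalised, fell by 0.30 on the same log2 scale (edgeR adjusted p = 0.033). For Rgs8, of the same family as Rgs17, the log2 fold change was 0.35 (edgeR adjusted p = 0.054). These calls depended on single rats: without AS rat 14, 16 or 17 or RS7 rat 3, 4 or 6, edgeR called 1 of the 12 genes, and without RS7 rat 5 it called 3. With the thalamic markers as a covariate it called 0.

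**Figure D5:**
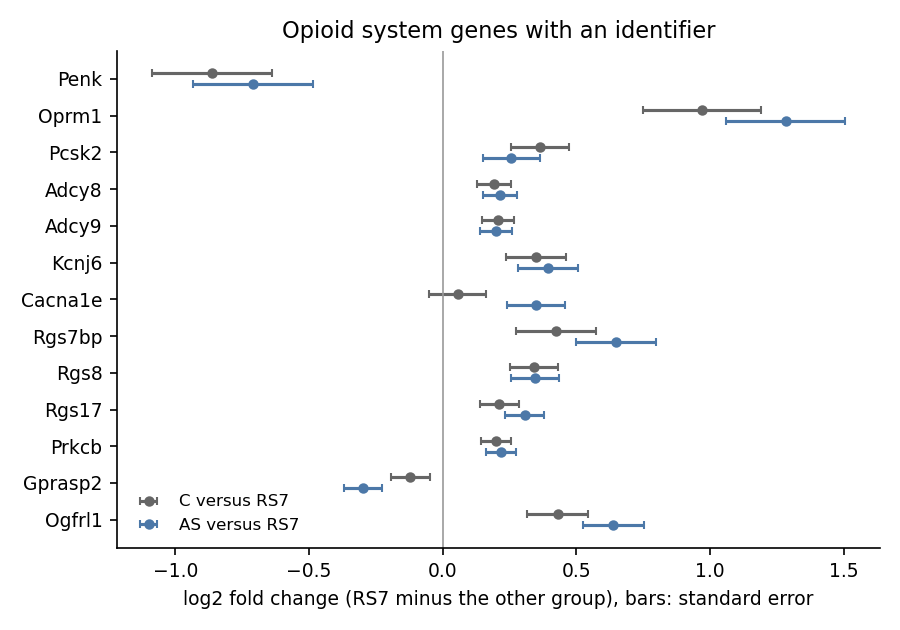
Log2 fold change (x axis, RS7 minus the other group; bars are standard errors) of the 13 opioid system genes with an identifier (y axis), in grey for C versus RS7 and blue for AS versus RS7. Oprm1 lies farthest to the right, at 0.97 and 1.28, Penk farthest to the left, at -0.86 and -0.71, Gprasp2 also lies below 0, and the others lie between 0 and 0.65.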

How the data were processed

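RNA of tissue blocks of the rPH region from 24 rats was sequenced as paired-end poly(A) libraries. Per the submitters' processing notes and the study's methods, the authors trimmed reads with Trimmomatic 0.36, mapped them to rn6 with HISAT2 2.0.5 and counted them on Ensembl genes with featureCounts. They deposited 1 table of unnormalized counts (32883 genes, 7066 at 0 in all rats). Strandedness, counting of pairs and treatment of multi-mapped reads are not given in the sources used here, so overlapping genes or near-identical copies could have exchanged reads. The table's header holds extra blank cells, so columns were read by position and matched to sample names. The supplied reference table matched 0 identifiers, and names came from the study's supplementary gene list (808 identifiers, 744 with a symbol the reference knows).

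The 20 retained rats were found by recomputing the mean normalized count of the 808 listed genes for each of 1296 sets with 1 rat omitted per group. The set without rats 20 (C), 18 (AS), 8 (RS3) and 1 (RS7) gave all 808 (relative tolerance 1e-07), and the next best 0. No pair of libraries agreed within sampling noise (lowest chi-square per gene 1.905).

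Counts were analysed in R 4.3.3 with edgeR 4.0.16 (filterByExpr with a minimum count of 10, 16202 genes kept, TMM, robust quasi-likelihood test, 4 groups in 1 fit, Benjamini-Hochberg within each comparison, threshold 0.05). Log2 CPM used a prior count of 2. The p-values set a difference between groups against the spread between these rats. Exact permutation, printed for Oprm1 in comparisons without RS7, used all 252 splits of 5 against 5 rats, two-sided. Alternatives were DESeq2 1.42.0 (Wald test and size factors), limma-voom 3.58.1 with quality weights, no count filter, all 24 rats, only the groups compared, libraries thinned to 8087697 counts and each rat left out. The 2 covariates and the omission of 3 rats together were added after seeing the data. The statistics were tested on simulated counts. Oprm1, the opioid and marker lists and the tests were chosen with earlier results of these data known. Named are Oprm1, every listed gene with an identifier, the 5 named genes highest in correlation with Oprm1 over the rats, and the 5 highest and 3 lowest within groups, some of which are not reported here. Start sequences are RefSeq's (GRCr8). Corticosterone and in situ hybridization were not analysed here.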

Additional observations from a re-analysis of the deposited data

Results flagged for a closer look

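A rat far from the rest of its group was looked for in the 52 groups of 5 rats of Oprm1 and the other 12 opioid system genes, by dividing the gap to the nearest rat by the whole range of the group. Oprm1 had no such rat in any group. Adcy8 in RS7 rat 5, at 76.7 CPM, had a gap of 0.852 of the range, and Gprasp2 in RS7 rat 2, at 350.1 CPM, a gap of 0.746, both above the critical value of 0.71. Chance alone flags about 1 group in 20.

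Among the rats the study left out, which entered no test in the 20-rat fit, Oprm1 was at 19.9 CPM in RS3 rat 8 and at 31.9 CPM in RS7 rat 1, above the highest retained C rat at 15.3 CPM on the same scale. By total counts alone, without TMM scaling, these rats had 17.6 and 23.4 CPM, so that the first lay inside the RS3 range and the second inside the RS7 range. The 10 most abundant genes took 24.9% and 33.8% of their counts, against at most 20.3% in the retained rats. The part of this in their Oprm1 levels was not tested.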

How the results depend on the processing

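The sign of the Oprm1 difference was the same in all 6 comparisons under every alternative run, but C versus RS3 came to 0.01 (standard error 0.17) with the dorsal thalamus markers as a covariate, which gives no direction. When each of the 20 rats was left out in turn, the log2 fold change ran from -0.49 to -0.19 in C versus AS (edgeR adjusted p 0.418 to 0.944), 0.18 to 0.45 in C versus RS3 (0.300 to 0.749), 0.50 to 0.80 in AS versus RS3 (0.539 to 1.00), 0.52 to 0.77 in RS3 versus RS7 (0.358 to 0.915), 0.84 to 1.09 in C versus RS7 and 1.16 to 1.46 in AS versus RS7. None of these p-values is independent of the choice of Oprm1. In RS3 versus RS7 Oprm1 was called in no fit across all genes (adjusted p 0.358 to 0.995). The difference of mean log2 CPM used for the exact permutation test was 0.73, and its p is not read as a call, because the RS7 rats had singled the gene out. The same covariate moved the values to 0.32 in C versus RS7, 0.53 in AS versus RS7, 0.31 in RS3 versus RS7 and 0.22 in AS versus RS3. It was built from genes that differed in these rats, which in part set this shift in advance. Counts over all genes depended far more on the processing. In C versus RS7, 24 genes were called by edgeR, 419 by DESeq2, 103 by limma-voom, 64 without the count filter, 46 in all 24 rats, 11 with the top-gene share as a covariate, 0 with the thalamic covariate, 0 without C rats 21 and 22 and RS7 rat 4 together, and 0 to 560 with 1 rat left out. In AS versus RS7 the 270 calls became 568, 772, 433 with only these groups, 129 in all 24 rats, 163 after thinning, 441 and 0 with the same covariates, and 46 to 403. In C versus RS3, DESeq2 called 38 and edgeR 17 without C rat 23, where edgeR called 0 with all rats. DESeq2 called 1 gene in AS versus RS3, and the top-gene share as a covariate gave 1 in C versus AS. Of the 12 other opioid genes, the 5 calls in AS versus RS7 became 10 with DESeq2, 10 with limma-voom, 3 in all 24 rats, 1 after thinning, 0 with the thalamic covariate and 1 to 7 with 1 rat left out, and the 0 calls in C versus RS7 became 5 with DESeq2, 1 with only these groups and 0 to 2 with 1 rat left out. Of the 5 genes most like Oprm1, 4 were shared under Spearman correlation and 4 in all 24 rats, in each ranking. The cause of these changes was not tested. No paired analysis was possible because no rat number is shared between groups. Depth gave 81 to 381 reads on Oprm1 per retained rat, and 5 rats per group left 95% intervals of the Oprm1 log2 fold changes about 1 wide.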
